A study of Mus musculus with 71 samples.

Results

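Hox genes, the clustered homeobox transcription factors, were taken here as every mouse gene whose symbol is Hoxa, Hoxb, Hoxc or Hoxd followed by a number, measured on probe sets annotated to that gene alone. By this rule 31 Hox genes were measured with 37 of the 22626 probe sets on the array, which carry 12393 genes in all. The study treated adipocytes differentiated from 2 mouse embryo fibroblast lines, 3T3-L1 and C3H/10T1/2, with rosiglitazone (RSG, an agonist of the nuclear receptor PPARγ) at 1 µM or with its solvent DMSO for 1, 2, 4, 7, 24 or 48 hrs, and measured 71 Affymetrix mouse arrays of total RNA. 3T3-L1 cells had been differentiated over 7 days. Insulin, dexamethasone, a phosphodiesterase inhibitor and 100 nM RSG were given for the first 2 days, then insulin alone, then plain medium. C3H/10T1/2 cells had insulin and 10 µM RSG for all 6 days. The DMSO controls of both lines had thus also met RSG before a washout of 24 hrs, but in 3T3-L1 only early in differentiation. Of the 24 groups, 23 held 3 arrays, labelled as biological replicates and differentiated, per the study's methods, in separate batches, with RNA of pooled wells, and 3T3-L1 with DMSO at 2 hrs held 2. Each line is 1 established line, so line, mouse strain of origin, differentiation protocol and culture cannot be told apart.

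Hox genes lie in clusters A to D, on mouse chromosomes 6, 11, 15 and 2, and are numbered by paralog group. Low numbers pattern anterior parts of the embryo, and high numbers, from 9 or 10 up to 13, pattern the posterior trunk and the ends of the limbs and genital tract. Fibroblasts and fat depots of the adult keep a Hox pattern that depends on where in the body they arose, held in part by Polycomb and Trithorax chromatin proteins, and Hox proteins bind DNA together with TALE cofactors of the Pbx, Meis and Pknox families. The questions asked of these arrays were which Hox genes each line carried as adipocytes without the drug, where in the clusters they lie, and whether 48 hrs of RSG changed any of them.

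The sequence upstream of a Hox gene is shown for 5 members: Hoxd10, which was below background in both lines, beside its chromosome neighbours Hoxd9 and Hoxd8, which had the widest differences between the lines, and Hoxa13 and Hoxa10, each present in 1 line only. Each run is the stretch just before the RefSeq transcription start in GRCm38.p6, on the strand of the gene. Capitals mark TAAT or ATTA, the core that homeodomains bind, and TGATTNAT or ATNAATCA, a joint Hox and Pbx site, searched on both strands with overlaps counted.
Hoxd10: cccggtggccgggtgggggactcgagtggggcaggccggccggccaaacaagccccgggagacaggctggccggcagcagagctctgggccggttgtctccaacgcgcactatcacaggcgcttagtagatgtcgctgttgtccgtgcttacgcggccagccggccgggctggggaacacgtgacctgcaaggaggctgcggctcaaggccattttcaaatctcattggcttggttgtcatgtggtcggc
Hoxd9: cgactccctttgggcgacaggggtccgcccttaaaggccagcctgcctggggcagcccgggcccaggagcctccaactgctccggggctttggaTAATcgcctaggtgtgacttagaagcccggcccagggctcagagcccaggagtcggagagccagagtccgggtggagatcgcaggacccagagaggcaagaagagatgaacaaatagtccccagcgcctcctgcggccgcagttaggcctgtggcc
Hoxd8: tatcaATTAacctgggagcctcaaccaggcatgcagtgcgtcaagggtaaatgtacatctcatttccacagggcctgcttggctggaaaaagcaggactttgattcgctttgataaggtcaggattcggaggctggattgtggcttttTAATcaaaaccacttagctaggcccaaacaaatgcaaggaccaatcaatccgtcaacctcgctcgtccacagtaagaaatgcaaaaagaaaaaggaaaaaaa
Hoxa13: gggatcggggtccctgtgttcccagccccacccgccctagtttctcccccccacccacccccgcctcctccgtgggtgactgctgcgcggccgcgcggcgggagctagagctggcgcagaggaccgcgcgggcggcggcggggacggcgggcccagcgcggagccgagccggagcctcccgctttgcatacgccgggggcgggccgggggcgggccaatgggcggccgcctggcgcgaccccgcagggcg
Hoxa10: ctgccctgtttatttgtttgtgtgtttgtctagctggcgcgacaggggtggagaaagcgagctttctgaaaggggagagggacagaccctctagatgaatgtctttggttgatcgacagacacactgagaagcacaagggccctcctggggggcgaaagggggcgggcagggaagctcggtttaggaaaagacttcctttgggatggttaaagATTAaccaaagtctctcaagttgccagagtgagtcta
These windows lie at chr2:74691641-74691890 (+) for Hoxd10, chr2:74697513-74697762 (+) for Hoxd9, chr2:74704365-74704614 (+) for Hoxd8, chr6:52260881-52261130 (-) for Hoxa13 and chr6:52240855-52241104 (-) for Hoxa10, which has another annotated start whose window is not shown. The TAAT core was found 2 times before Hoxd8, 1 time before Hoxd9 and Hoxa10, and not before Hoxd10 or Hoxa13, while 54.9% of 32851 RefSeq promoter windows of the same length hold it. None of the 5 windows holds the joint site, which 2.82% of all windows hold. The window of Hoxa13 is 80% G and C with 35 CpG, that of Hoxd10 65.6% with 20 CpG, and that of Hoxd8 44.4% with 6 CpG, against medians of 52.4% and 6 CpG over all windows. These matches describe the letters only, and no binding or methylation was measured.

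Signals are MAS5 values, which Affymetrix's algorithm computes from each probe set's matched and mismatched probes, and a probe set was called present in a group when its mean signal reached about 20, the intensity that the study's methods took from the 95th percentile of negative control probe sets. Its use on group means, and the bacterial control probe sets taken here to describe the controls of each line, were choices of the present comparison. The lines did not share one scale. Median signals per array lay between 50.2 and 64.2 in 3T3-L1, against 38.2 and 46.9 in C3H/10T1/2, and the 95th percentile of the bacterial controls was 25 in 3T3-L1, against 13.8 in C3H/10T1/2. Adipocyte markers (9 genes such as Fabp4 and Pparg) were present on all 15 of their probe sets in both lines. With DMSO, 17556 of all probe sets (77.6%) were present at 1 or more times in 3T3-L1, against 15892 (70.2%) in C3H/10T1/2. A signal reports the mean of a culture, in which fewer expressing cells and less RNA per cell cannot be told apart.

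Hox genes were present less widely than the array as a whole, and cluster A held more of those present than any other cluster in either line. With DMSO, 15 of 31 Hox genes (18 of 37 probe sets, 48.6%) were present at 1 or more times in 3T3-L1, and 13 (15 probe sets, 40.5%) in C3H/10T1/2. Present at every one of the 6 times were 14 genes in 3T3-L1, against 8 in C3H/10T1/2. Both lines carried 11 genes, 4 were present in 3T3-L1 only (Hoxa13, Hoxb1, Hoxb4 and Hoxb6), 2 in C3H/10T1/2 only (Hoxa4 and Hoxa10), and 14 in neither. The map of the clusters shows these calls by paralog group.

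**Figure D1:**
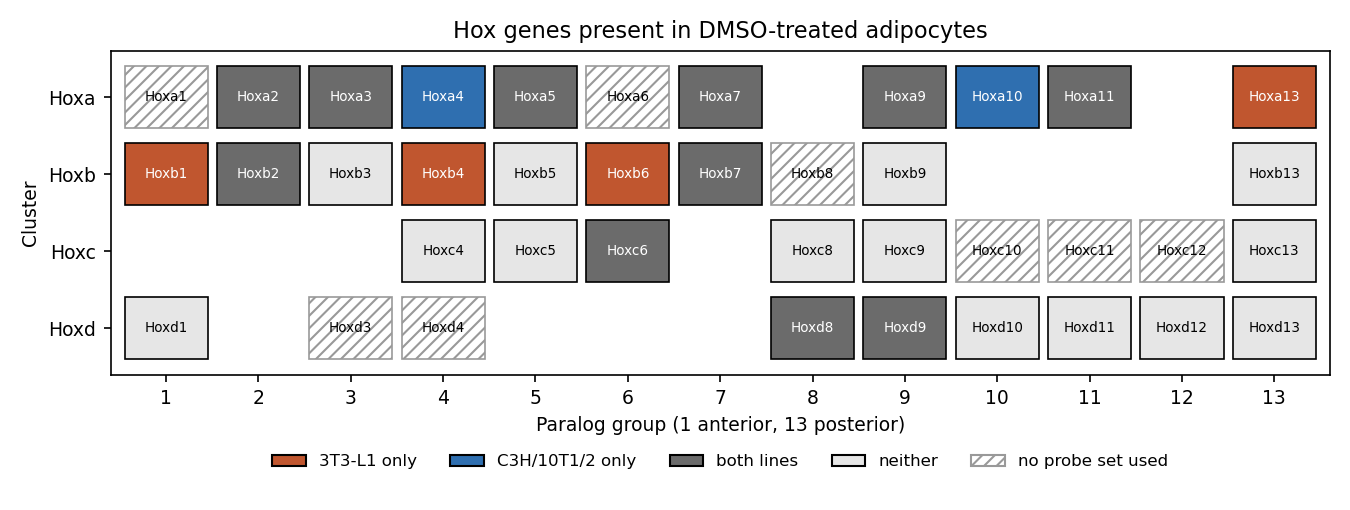
Hox genes by cluster (rows) and paralog group (columns, 1 anterior to 13 posterior), coloured by the line in which the mean of at least 1 of the 6 DMSO groups reached the presence limit of about 20. Cluster A is filled nearly throughout, while clusters C and D hold 1 and 2 present genes.

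By cluster, A had 7 of 9 measured genes present in 3T3-L1 and 8 of 9 in C3H/10T1/2, and no gene absent from both. Cluster B had 5 of 9 in 3T3-L1, against 2 of 9 in C3H/10T1/2, cluster C had 1 of 6 in both, and cluster D had 2 of 7 in both. By position, 5 of 9 genes of groups 1 to 4 were present in 3T3-L1 and 4 in C3H/10T1/2, 8 and 7 of 13 genes of groups 5 to 9, and 2 and 2 of 9 genes of groups 10 to 13. All 3 genes of groups 10 to 13 present in either line (Hoxa10, Hoxa11 and Hoxa13) lie in cluster A. Along chromosome 2, Hoxd8 and Hoxd9 were the only measured genes of cluster D that were present, with Hoxd10 to Hoxd13 on one side and Hoxd1 on the other absent. Hoxd3 and Hoxd4, which lie between Hoxd8 and Hoxd1, were among 8 Hox genes with no probe set of their own here.

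The 14 genes called absent were Hoxb3, Hoxb5, Hoxb9, Hoxb13, Hoxc4, Hoxc5, Hoxc8, Hoxc9, Hoxc13, Hoxd1, Hoxd10, Hoxd11, Hoxd12 and Hoxd13, each with 1 probe set. Their medians over the DMSO arrays ran from 1.1 to 11.7 in 3T3-L1, against 0.75 to 8.05 in C3H/10T1/2, and 10 of the 14 reached the limit on no DMSO array of either line. The highest array was 30.4 in 3T3-L1, against 22.4 in C3H/10T1/2, both for Hoxd11, and the highest group means were 19.2 and 14.8. A low signal can also come from a probe set that works poorly: Hoxa4, Hoxa9 and Hoxc6 each had 1 probe set below the limit in all groups beside another that was present.

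Which genes counted as present in 1 line only depended on the limit. With each line's own 95th percentile of the control probe sets in place of the shared one, chosen after seeing the data, 3T3-L1 kept its 15 genes (17 probe sets) and C3H/10T1/2 had 18 (20 probe sets), adding Hoxa13, Hoxb1, Hoxb4, Hoxb6 and Hoxd11. No gene was then present in 3T3-L1 alone, whereas Hoxa4 and Hoxa10 were still present in C3H/10T1/2 only and Hoxd11 joined them.

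Levels were compared between the lines over the 6 DMSO times, with limma on log2 signals and Benjamini-Hochberg adjustment over the 18274 probe sets present in any group. Of 20 Hox probe sets (17 genes) tested, 12 were higher in 3T3-L1, where 55.1% of all probe sets tested were higher, and 3 were lower, against 22.4% of all. The median difference over all tested probe sets was 0.32 on the log2 scale (3T3-L1 minus C3H/10T1/2) and that of the Hox probe sets 0.79. After quantile normalization, which gives all arrays the same distribution, these medians were 0.07 and 0.34, and 11 Hox probe sets were higher in 3T3-L1 and 7 lower, against 36.2% and 31.2% of all. The 17 probe sets below the limit in every group were not tested. A member that passed only through the line in which it was high was favoured to differ, so its call describes that choice. All arrays of 3T3-L1 lay above all those of C3H/10T1/2 with DMSO for 3 Hox probe sets (5.94% of all probe sets tested) and below them for 1 (3.37%). The values of every tested member on each DMSO array are plotted by line.

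**Figure D2:**
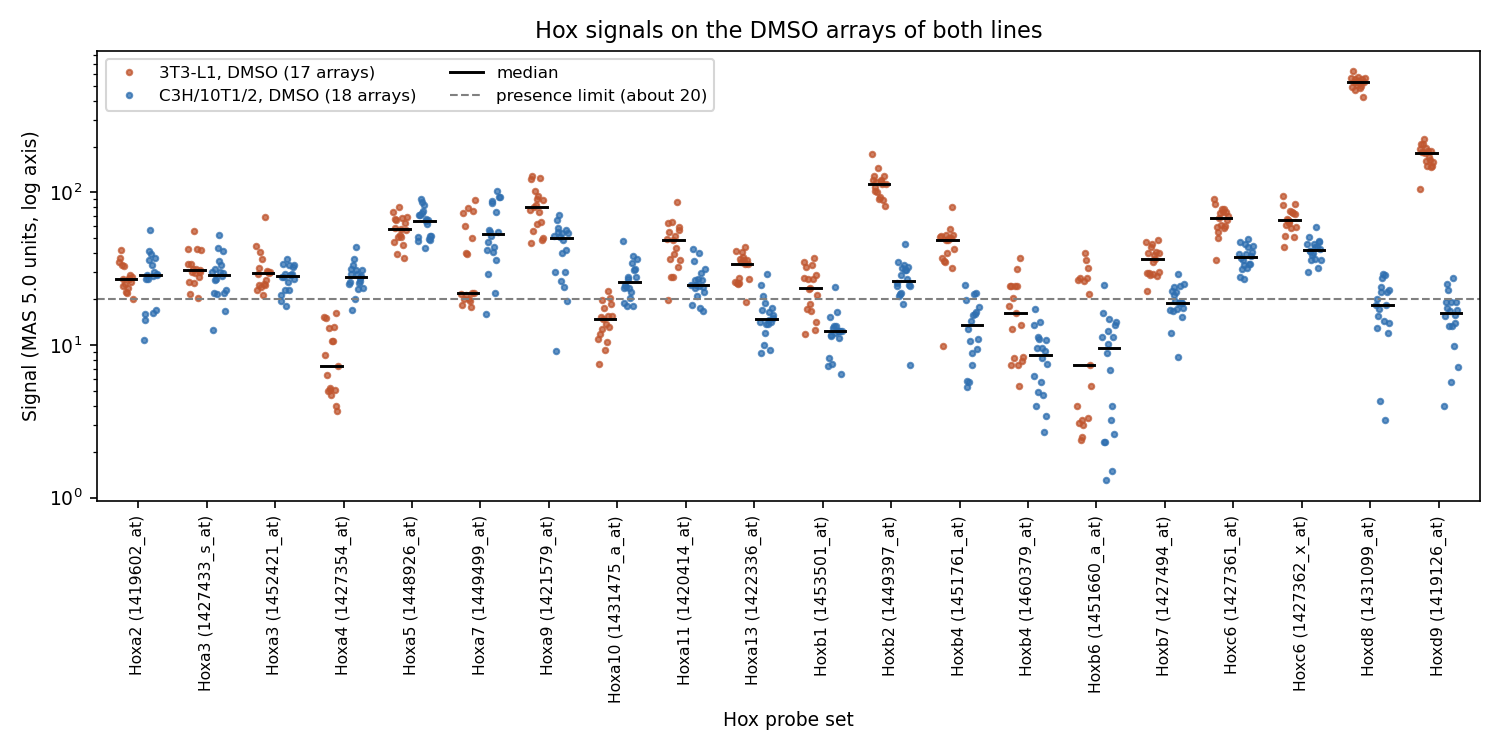
Signal (log axis) of the Hox probe sets tested between the lines on each DMSO array, 17 of 3T3-L1 and 18 of C3H/10T1/2, with the median of each line and the presence limit of about 20 as a dashed line. Hoxd8, Hoxd9, Hoxb2 and Hoxa4 show no overlap between the lines.

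Hoxd8, a cluster D gene of the middle paralog groups, had the largest difference. Its signals with DMSO ran from 422.5 to 623.6 (median 528.7) in 3T3-L1, against 3.2 to 29.1 (median 18.25) in C3H/10T1/2. The difference was 5.04 on the log2 scale (SE 0.20, 95% interval 4.63 to 5.45, limma adjusted p = 3.3e-29), 4.59 with signals under the limit set to it, and between 4.35 and 5.69 at the 6 times taken alone. Only 8 of the 18 C3H/10T1/2 arrays and 2 of the 6 group means reached the limit there. Its neighbour Hoxd9 ran from 105.4 to 222.6 (median 182.5) in 3T3-L1, against 4 to 27.6 (median 16.25) in C3H/10T1/2, where 3 arrays and 1 group mean, at 2 hrs, reached the limit. The difference was 3.61 (SE 0.19, adjusted p = 1.67e-24), or 3.07 with signals under the limit set to it. Both genes were therefore strong in 3T3-L1 and at the edge of detection in C3H/10T1/2, and the lines stayed apart for both when the RSG arrays were included.

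Hoxb2, a cluster B gene known from hindbrain patterning, was the third gene without overlap. It ran from 81.1 to 179.3 (median 114.1) in 3T3-L1, against 7.4 to 46.2 (median 26.25) in C3H/10T1/2. This was 4.40-fold (log2 2.14, SE 0.11, adjusted p = 4.4e-25), with a log2 difference of 1.46 to 2.69 at single times, and it also held over all arrays including those with RSG. Quantile normalization left log2 differences of 4.78 for Hoxd8, 3.24 for Hoxd9 and 1.74 for Hoxb2.

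Hoxa4 and Hoxa10 went the other way. Hoxa4 (probe set 1427354_at), an anterior cluster A gene, reached the limit on none of the 17 DMSO arrays of 3T3-L1 (3.7 to 16.1, median 7.3) and on 17 of the 18 of C3H/10T1/2 (16.9 to 43.7, median 27.95). The signal in 3T3-L1 is only a bound, and the level there was at least 1.39-fold lower (log2 of the measured signals -1.86, SE 0.23, adjusted p = 3.7e-10; quantile normalized -2.38). Hoxa10, a posterior gene known for its part in uterine and limb development, ran from 7.5 to 22.7 (median 14.8) in 3T3-L1, with 2 of 17 arrays at the limit, against 17.9 to 48.2 (median 25.8) in C3H/10T1/2. It was lower in 3T3-L1 by -0.90 on the log2 scale (SE 0.14, adjusted p = 8.1e-08), or -1.43 after quantile normalization, with overlapping arrays and 4 of the 6 times called when tested alone. Hoxa10 was tested only because groups of C3H/10T1/2 reached the limit, which favours a lower level in 3T3-L1.

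The genes present only in 3T3-L1 had low signals in both lines. They were tested only because groups of 3T3-L1 reached the limit, which favours a higher level there. Hoxb4, a cluster B gene studied in blood stem cells, had on probe set 1451761_at 9.9 to 79.9 (median 49.1) in 3T3-L1, against 5.3 to 24.7 (median 13.5) in C3H/10T1/2 (log2 1.73, SE 0.23, adjusted p = 1.85e-09; quantile normalized 1.21). Its other probe set, 1460379_at, had 5.4 to 36.9 (median 16.3) in 3T3-L1, against 2.7 to 17.1 (median 8.65) in C3H/10T1/2. It reached the limit on 7 of 17 arrays in 3T3-L1 and on 0 of 18 in C3H/10T1/2, so no fold is given. It was among the 12 probe sets called (adjusted p = 0.00217), and the call was lost after quantile normalization (adjusted p = 0.232) and with low signals set to the limit (adjusted p = 0.0799).

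Hoxa13, the most posterior gene of cluster A and a gene of the distal limb, had 19.2 to 44.1 (median 34.1) in 3T3-L1, against 8.9 to 29.2 (median 14.8) in C3H/10T1/2 (log2 1.05, SE 0.14, adjusted p = 1.15e-09; quantile normalized 0.51). Hoxb1, a hindbrain gene, had 11.8 to 37.1 (median 23.7) in 3T3-L1, against 6.5 to 24.1 (median 12.3) in C3H/10T1/2 (log2 0.95, SE 0.15, adjusted p = 7.6e-08; quantile normalized 0.41). For both, the lines overlapped on single arrays and each was called at 5 of the 6 times alone. Neither reached the limit in any C3H/10T1/2 group, so their calls describe genes tested because they were higher in 3T3-L1.

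Hoxb6 differed more between arrays of 1 line than between the lines. Its 3T3-L1 arrays with DMSO read 26.3, 40.1 and 36.3 at 7 hrs, but 2.5, 3.2 and 3 at 4 hrs, and 27.5, 32.1 and 3.3 at 24 hrs. Over all times it ran from 2.4 to 40.1 (median 7.4) in 3T3-L1, against 1.3 to 24.7 (median 9.55) in C3H/10T1/2, and the difference of 0.56 (SE 0.39) did not pass the test (adjusted p = 0.186). Its presence in 3T3-L1 rests on 8 of 17 arrays and 2 of 6 group means.

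Among the genes present in both lines, Hoxa9, Hoxb7, Hoxc6 and Hoxa11 were higher in 3T3-L1. Hoxa9, a trunk gene also known from leukaemia, ran from 46.3 to 128.1 (median 80.1) in 3T3-L1, against 9.1 to 70.9 (median 50.1) in C3H/10T1/2 (log2 0.99, SE 0.19, adjusted p = 5.2e-06; quantile normalized 0.63). Hoxb7 ran from 22.5 to 48.7 (median 36.8) in 3T3-L1, against 8.4 to 29.2 (median 18.95) in C3H/10T1/2 (log2 0.92, SE 0.13, adjusted p = 8.6e-09; quantile normalized 0.39). Hoxa11, a gene of the forearm and uterus, ran from 19.8 to 86.7 (median 49) in 3T3-L1, against 16.6 to 42.5 (median 24.7) in C3H/10T1/2 (log2 0.79, SE 0.15, adjusted p = 6.3e-06; quantile normalized 0.31). All 3 overlapped between the lines, and Hoxa9 was called at 2 of the 6 times alone, Hoxa11 at 3 and Hoxb7 at 5.

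Hoxc6, the one gene of cluster C that was present, had a pair of tested probe sets that gave similar differences. Another, 1427454_at, averaged 2.49 in 3T3-L1 and 1.8 in C3H/10T1/2 with DMSO, lay under the limit on every array and was not tested. Probe set 1427361_at ran from 36.2 to 90.5 (median 68) in 3T3-L1, against 27.1 to 49.5 (median 37.6) in C3H/10T1/2 (log2 0.80, SE 0.10, adjusted p = 2.87e-10; quantile normalized 0.39). Probe set 1427362_x_at, whose suffix marks probes that may also match other transcripts, ran from 43.9 to 94.8 (median 66.1) in 3T3-L1, against 30.1 to 59.2 (median 41.85) in C3H/10T1/2 (log2 0.65, SE 0.09, adjusted p = 5.8e-09; quantile normalized 0.25). Probe set 1427361_at was called at every one of the 6 times alone, and 1427362_x_at at 4 of them.

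For Hoxa2, Hoxa3 and Hoxa5, toward the anterior end of cluster A, no mean difference over the DMSO times passed the test on the signals as deposited. Tested at single times, Hoxa2 was called at 1 hr only (log2 1.48, limma adjusted p = 2.03e-05), with differences from -0.64 to 1.48. Hoxa3 and Hoxa5 were called at no single time. Hoxa2 had medians of 27.2 in 3T3-L1, against 28.8 in C3H/10T1/2 (log2 0.07, 95% interval -0.17 to 0.30, adjusted p = 0.601), and Hoxa5, which in mice is needed for lung and rib development, 57.6 in 3T3-L1, against 65.3 in C3H/10T1/2 (log2 -0.13, interval -0.38 to 0.12, adjusted p = 0.331). The 2 probe sets of Hoxa3 had medians of 30.8 (1427433_s_at) and 29.6 (1452421_at) in 3T3-L1, against 28.9 and 28.35 in C3H/10T1/2, with log2 differences of 0.18 and 0.15 (adjusted p = 0.21 and 0.285). All 4 probe sets were called lower in 3T3-L1 after quantile normalization, with log2 differences of -0.45 for Hoxa2 (adjusted p = 0.000419), -0.49 for Hoxa5 (0.000653) and -0.33 and -0.35 for Hoxa3 (0.0173 and 0.0105), so for these genes the call rested on how the arrays were scaled. The plot of differences shows both scalings for every member.

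**Figure D3:**
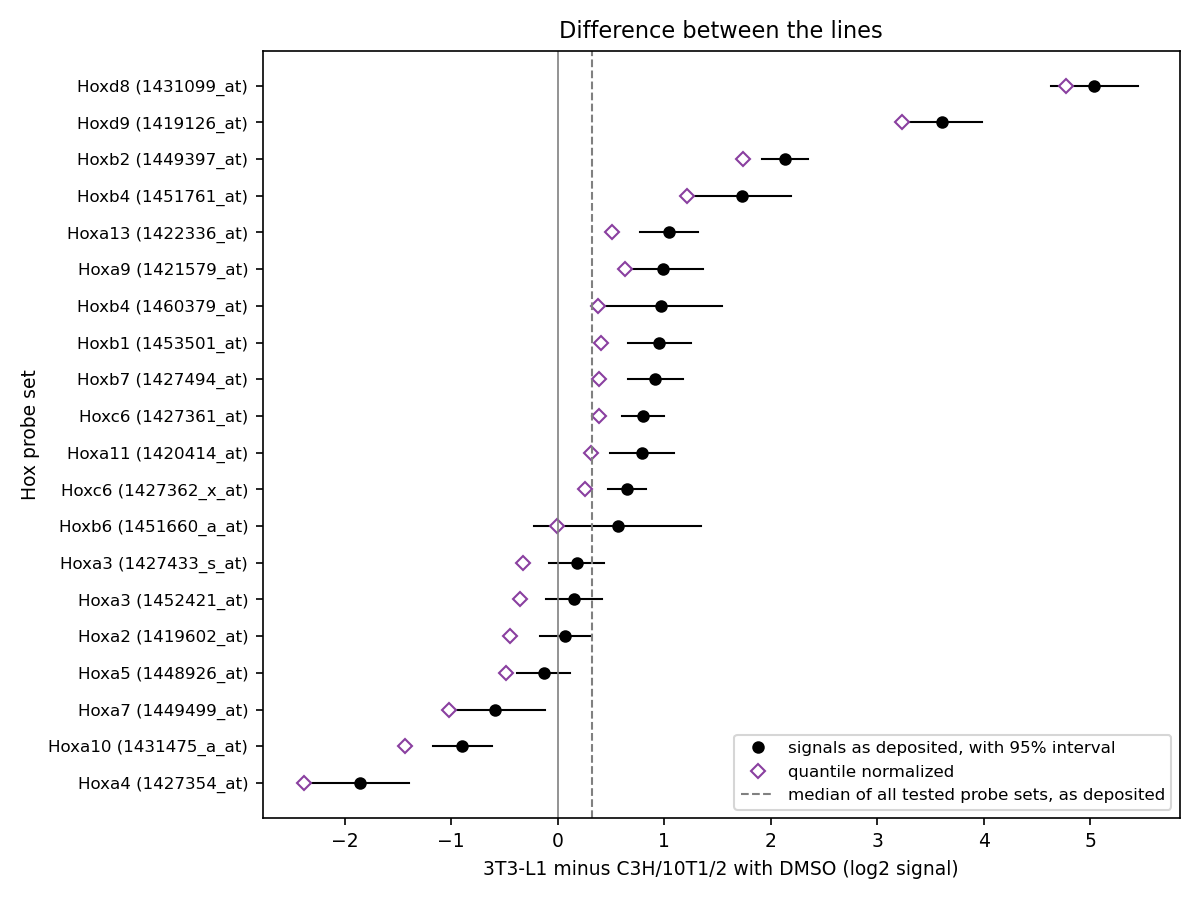
Difference between 3T3-L1 and C3H/10T1/2 with DMSO (log2 signal, 3T3-L1 minus C3H/10T1/2) for the 20 tested Hox probe sets, as deposited (filled, with 95% intervals) and after quantile normalization (open), with the median of all tested probe sets (0.32) dashed. Hoxd8 (5.04) and Hoxd9 (3.61) lie far to the right and Hoxa4 (-1.86) far to the left under both.

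Hoxa7 was lower in 3T3-L1 by -0.59 on the log2 scale (SE 0.23, adjusted p = 0.0201; quantile normalized -1.02), with 17.8 to 88.7 (median 22) in 3T3-L1, against 16 to 102.7 (median 53.75) in C3H/10T1/2. The arrays labelled replicate 2 of 3T3-L1 with DMSO lay between 18.4 and 22 at all 6 times. Without that replicate number in 3T3-L1 the difference was -0.16 (adjusted p = 0.564), and without replicate 2 or 3 of C3H/10T1/2 the adjusted p was 0.153 or 0.106. The call was also lost with the replicate number as a random block within each line (adjusted p = 0.074) and with 1 mean per number, 3 against 3 (0.104), and no single time was called alone.

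Changes with RSG were tested at each time, and counts of Hox probe sets are given beside the share of all probe sets. In 3T3-L1, 19 Hox probe sets (16 genes) were tested among 18028, and in C3H/10T1/2, 15 (13 genes) among 16123. In 3T3-L1 no Hox probe set was called at 1, 2, 4 or 7 hrs, where 0.0666%, 0.172%, 0.716% and 2.04% of all probe sets were, 1 was called at 24 hrs (11.8% of all) and 1 at 48 hrs (14.3% of all). In C3H/10T1/2 none was called at any time in this fit, which did not pair arrays. The shares of all probe sets there were 0.0434%, 0.229%, 0.763%, 2.85%, 7.72% and 5.41% in the same order of times. At an unadjusted p under 0.05, limma counted 1, 2, 1, 1, 2 and 2 of 19 in 3T3-L1, and of the 15 probe sets it counted 0, 2, 1, 1, 0 and 2 in C3H/10T1/2 at these times, in the same order. The shares of all probe sets at that p were 4.2%, 4.28%, 6.97%, 12.2%, 23.3% and 25.4% in 3T3-L1, against 3.27%, 4.19%, 8.31%, 14.8%, 20% and 16.5% for C3H/10T1/2. The Hox share was above that of all probe sets at the earliest pair of times in 3T3-L1 and, for C3H/10T1/2, at 2 hrs, and below it at the other times. With the replicate number as a block, which pairs the arrays of C3H/10T1/2, Hoxb2 passed limma's test there at 48 hrs (adjusted p = 0.0302). Blocked calls of 3T3-L1 are given below.

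**Figure D4:**
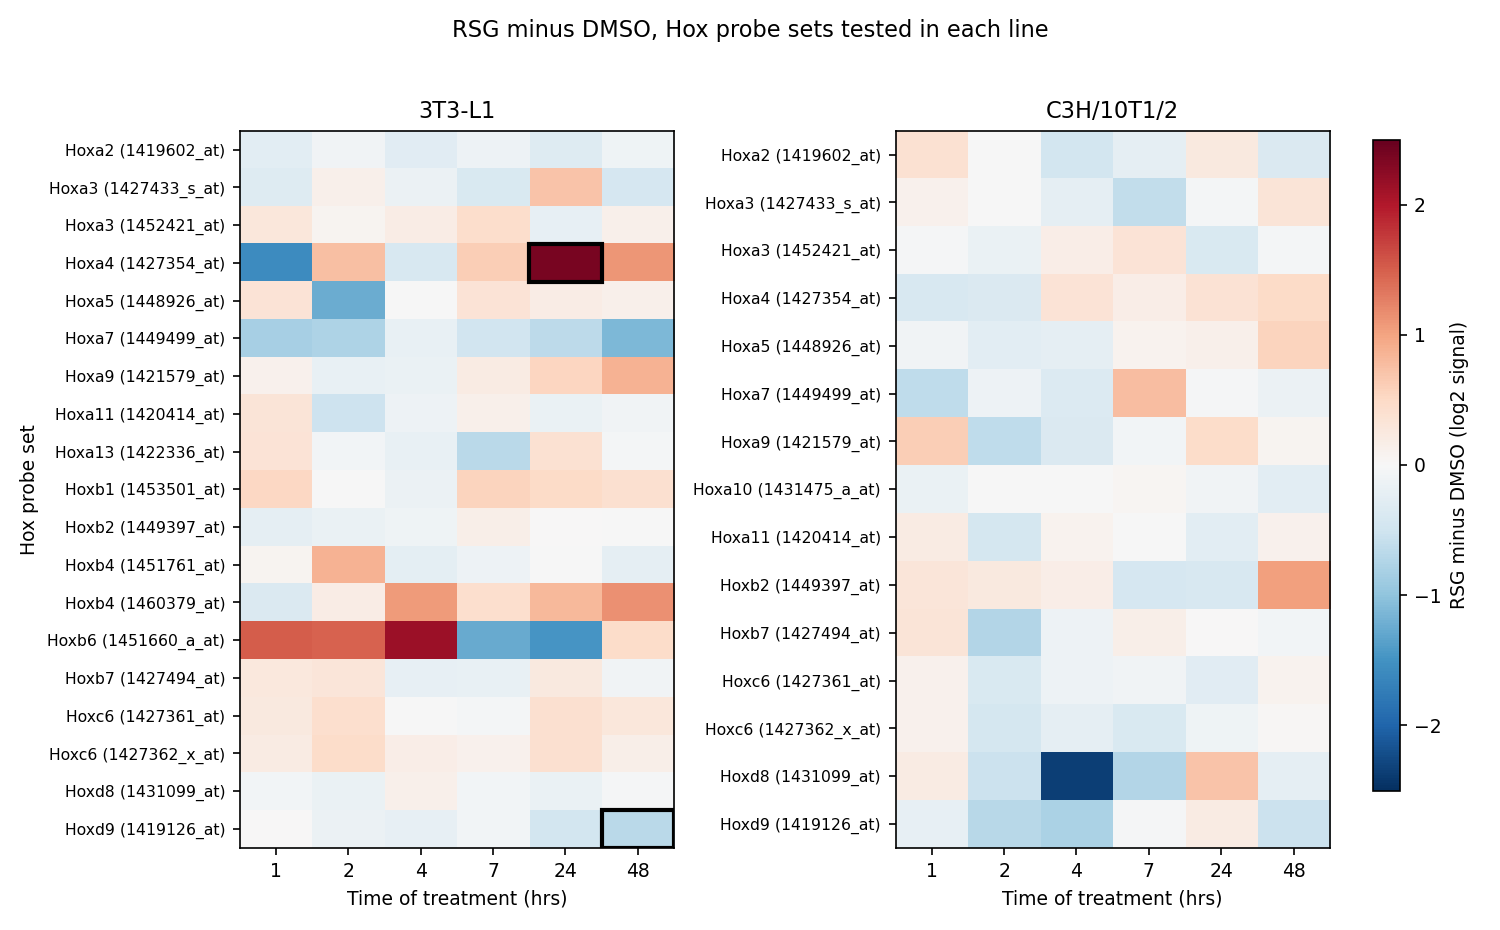
RSG minus DMSO (log2 signal) for each Hox probe set tested in 3T3-L1 (left) and in C3H/10T1/2 (right) at each of the 6 times. The 2 changes that passed the test in the fit without a replicate block are Hoxa4 at 24 hrs (2.37) and Hoxd9 at 48 hrs (-0.67), both in 3T3-L1.

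The gene called at 24 hrs in 3T3-L1 was Hoxa4, which was below the limit on every DMSO array of that line. Its signals were 40.4, 19.2 and 48 with RSG, against 13.2, 5.1 and 4 with DMSO, so that the groups did not overlap. The level with RSG was at least 1.68-fold higher (log2 of the measured signals 2.37, SE 0.76, adjusted p = 0.0361). Hoxa4 was tested in 3T3-L1 only because this RSG group reached the limit, so its call is a description of a group that had to be high to be tested. At 1 hr the difference went the other way, with signals of 3.7, 3.7 and 5.5 with RSG, against 15.2, 8.6 and 15 with DMSO. These groups did not overlap, all their arrays lay under the limit, and limma did not call them (log2 -1.57, adjusted p = 0.999). At 7 hrs the signals of Hoxa4 were 24.5, 3.6 and 22 with RSG, against 4.7, 10.6 and 10.7 with DMSO. At 48 hrs they were 22.7, 8.1 and 23.1 with RSG, against 16.1, 3.7 and 7.3 with DMSO. At 7 and 48 hrs the groups overlapped and neither time was called (adjusted p = 0.861 at 7 hrs and 0.405 at 48 hrs). None of the other 11 groups of 3T3-L1 had a mean at the limit. The call was lost after quantile normalization (adjusted p = 0.0542) and without RSG replicate 1 (0.165), RSG replicate 3 (0.149), DMSO replicate 2 (0.143) or DMSO replicate 3 (0.218). In C3H/10T1/2 the log2 differences of Hoxa4 lay between -0.41 and 0.48 and none was called.

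The gene called at 48 hrs was Hoxd9. Its signals in 3T3-L1 were 109.4, 105.8 and 95.9 with RSG, against 187.9, 149 and 158.4 with DMSO, without overlap (log2 -0.67, SE 0.20, adjusted p = 0.0202). At 24 hrs the signals were 120.3, 97 and 134.4 with RSG, against 169.5, 163.3 and 146.7 with DMSO, again without overlap but not called (log2 -0.46, adjusted p = 0.147; 0.047 with the replicate number as a block). At 1 to 7 hrs the differences lay closer to 0 and the groups overlapped. The call at 48 hrs was lost without RSG replicate 3 (adjusted p = 0.0943) or DMSO replicate 1 (0.118), and with only the 2 groups compared in the fit (0.0585). Hoxd9 with RSG was still above all C3H/10T1/2 arrays.

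Hoxd8, beside Hoxd9 on the chromosome, was not called at any time: its log2 differences in 3T3-L1 were between -0.16 and 0.12, with 95% intervals that reached no further than -0.49 and 0.41 at any time. Hoxb2 in 3T3-L1 lay between -0.22 and 0.15, with bounds of -0.58 and 0.50. For the 15 Hox probe sets of 3T3-L1 that were at the limit in all 12 groups, the 95% interval, not adjusted for the number of tests, reached between 0.29 and 0.77 to either side (median 0.63), or between 0.32 and 0.86 (median 0.70) at 2 hrs with its 2 DMSO arrays. For the 10 of C3H/10T1/2 it reached between 0.40 and 0.99 (median 0.60). Over all tested Hox probe sets it reached up to 2.07 in 3T3-L1 and 1.38 in C3H/10T1/2, so probe sets not called are not shown to be unchanged.

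**Figure D5:**
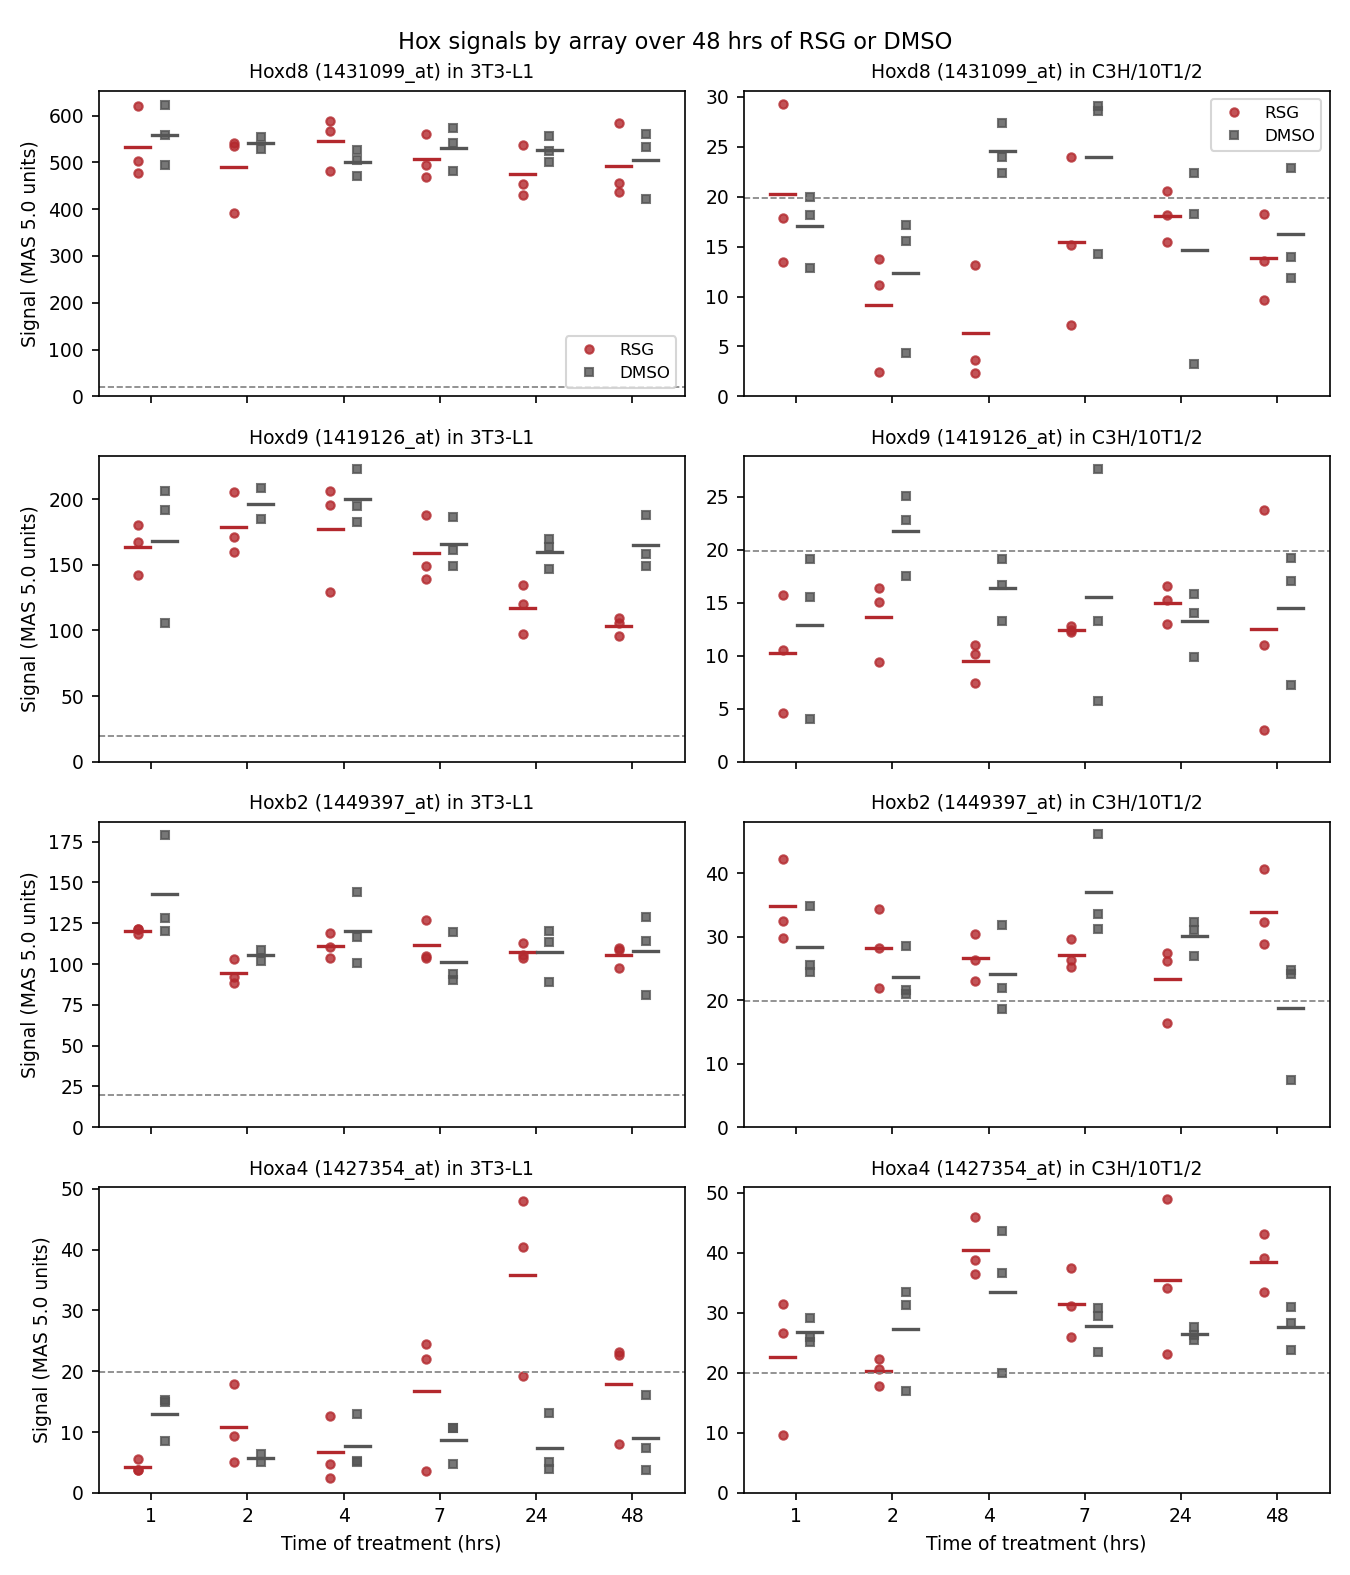
Signal of 4 Hox genes (rows) on each array over the 6 times in 3T3-L1 (left) and C3H/10T1/2 (right), with RSG and DMSO in different colours and the presence limit of about 20 dashed. In 3T3-L1 the Hoxa4 arrays with RSG at 24 hrs (19.2 to 48) and the Hoxd9 arrays with RSG at 48 hrs (95.9 to 109.4) stand apart from their DMSO arrays.

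In C3H/10T1/2 the nearest to a call was Hoxb2 at 48 hrs, with 40.6, 28.9 and 32.3 with RSG, against 24.8, 7.4 and 24.2 with DMSO (log2 1.03, SE 0.32, adjusted p = 0.0522). With the replicate number as a block, which in this line pairs the arrays, it passed the test (adjusted p = 0.0302), and it also did so after quantile normalization (0.0297). Of the fits with 1 replicate left out, it passed only without DMSO replicate 1 (0.0423) or 3 (0.0272). The DMSO array at 7.4 was the lowest of this line for Hoxb2, and the mean of its group, 18.8, lay under the limit. Hoxd8 at 4 hrs read 3.6, 13.2 and 2.3 with RSG, against 22.4, 24 and 27.4 with DMSO, without overlap but not called (log2 -2.36, adjusted p = 0.121), and none of the RSG arrays reached the limit. In 3T3-L1, Hoxa9 at 48 hrs read 124.8, 110.3 and 98.6 with RSG, against 49, 89.9 and 50.1 with DMSO (log2 0.87, adjusted p = 0.112; 0.0471 with the block), and Hoxa5 at 2 hrs read 52.1, 10.7 and 39.5 with RSG, against 67.2 and 65.8 with DMSO (log2 -1.25, adjusted p = 0.514).

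All 6 times were also tested together. The F test of RSG called 0 Hox probe sets in 3T3-L1 (14% of all) and 0 in C3H/10T1/2 (9.67% of all), with 2 in each line at an unadjusted p under 0.05 (Hoxd9 and Hoxa4 in 3T3-L1, Hoxd8 and Hoxb2 in C3H/10T1/2). With the replicate number as a block it called 2 in 3T3-L1, Hoxd9 (adjusted p = 0.0113) and Hoxa4 (0.0354), and 0 in C3H/10T1/2. The replicate numbers did not pair the arrays of 3T3-L1 throughout. Hoxa4 entered the RSG tests of 3T3-L1 only through 1 RSG group at the limit. Its F tests there therefore describe a group that had to be high to be tested. The test of whether the RSG effect differed between the lines called 0 of 20 (0.553% of all), with 4 at an unadjusted p under 0.05. Counting genes present with RSG in place of DMSO, 3T3-L1 had 16 (Hoxa4 added) and C3H/10T1/2 12 (Hoxd9 under the limit). The set of Hox genes present differed between RSG and DMSO by 1 gene in each line.

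Time in culture without the drug was tested among the DMSO groups. In 3T3-L1 no Hox probe set changed with time by limma's F test (2.24% of all probe sets did), with 2 at an unadjusted p under 0.05, Hoxb6 and Hoxb4. In C3H/10T1/2, 2 changed (20.6% of all did). Hoxa2 had group means of 13.7, 27.6, 44.6, 33.8, 27.8 and 25.0 over the 6 times in order (adjusted p = 0.00413), lowest at 1 hr, and lost its call without DMSO replicate 1. Hoxa3 (1427433_s_at) had 21.5, 28.4, 39.2, 32.9, 33.1 and 20.5 (adjusted p = 0.0499). Of the fits with 1 replicate left out, it kept its call only without DMSO replicate 1. The other probe set of Hoxa3, 1452421_at, had 22.8, 28.3, 28, 27.5, 28.8 and 31.1, and limma's F test did not call it (adjusted p = 0.822). With the replicate block the count was 4, adding Hoxa5 (adjusted p = 0.0446) and Hoxa7 (0.0359).

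The TALE cofactors of Hox proteins were mostly higher in 3T3-L1. Of 11 probe sets tested, 9 were higher in 3T3-L1 and 0 lower, against 55.1% and 22.4% of all. The median log2 difference was 0.77, against 0.32 over all probe sets. After quantile normalization 6 were higher and 1 lower (median 0.36), against 36.2% and 31.2% of all. The largest were Pknox2 (1.39, quantile normalized 0.86), Meis3 (1.05 and 0.58), Pbx3 (1.03 and 0.75) and 1 of 3 probe sets of Pbx2 (0.80 and 0.68), whose others gave 0.11 and 0.31. RSG passed the F test for 1 of these probe sets in 3T3-L1 and 0 of 11 in C3H/10T1/2.

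Of the Polycomb group, whose complexes keep silent Hox genes off, 19 of 36 tested probe sets were higher in 3T3-L1 and 4 lower (median 0.40). Among all tested probe sets 55.1% were higher and 22.4% lower (median 0.32), so the count of higher ones lay near the share of all. After quantile normalization 13 of 35 Polycomb probe sets were higher and 8 lower (median 0.04), against 36.2% and 31.2% of all (median 0.07). The largest differences were Phc1 (1.84), 1 of 2 probe sets of Phf19 (1.09, the other 0.38 and not called), Cbx2 and Cbx7 (both 0.84), all 4 also higher after quantile normalization. The Trithorax group and H3K27 demethylases, which keep active genes on, had 5 of 13 higher and 3 lower (median 0.10), but 4 higher and 5 lower after quantile normalization (median -0.14). Their largest were Men1 (0.54, its other probe set 0.10 and not called), Kmt2a (0.52), Ash2l (0.48) and Kdm6a (-0.45), with the same signs after quantile normalization on the probe sets named.

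Other positional transcription factors, mostly of the homeobox and T-box families, differed in both directions. Their list also held genes of other families, among them Nr2f1, Twist1 and Sim1. Of 31 tested probe sets, 23 were higher in 3T3-L1 and 7 lower (median 0.72), against 55.1% and 22.4% of all. After quantile normalization 12 of 30 were higher and 8 lower (median 0.16), against 36.2% and 31.2% of all. Shox2, a limb and heart factor, reached the limit on 8 of 17 DMSO arrays of 3T3-L1 and on none of C3H/10T1/2, and its mean lay under the limit in both lines, so no fold is given. Nr2f1 had a log2 difference of -1.84 (quantile normalized -2.29), and Prrx1, a limb and mesenchyme factor, -1.83 to -1.02 over its 4 probe sets, all lower under both scalings. Pax3, a dermomyotome factor, had 1 probe set below the limit on all C3H/10T1/2 arrays and another with a difference of 1.10 (quantile normalized 0.58).

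Markers of other cell states also differed between the lines. Of all tested probe sets, 55.1% were higher in 3T3-L1 and 22.4% lower, or 36.2% and 31.2% after quantile normalization. The counts of each marker list stand beside these shares, and the sums are of signals as deposited. The summed signals of 17 fibroblast and preadipocyte probe sets lay between 25030 and 32531 on the DMSO arrays of 3T3-L1, against 18334 and 23270 in C3H/10T1/2, without overlap. Of these, 10 were higher and 3 lower in 3T3-L1 (11 and 3 after quantile normalization), with the largest differences for Dlk1 (log2 6.42), a preadipocyte factor, Postn (2.16), Pdgfra (1.71) and Thy1 (1.62), and RSG lowered 12 of the 17 in 3T3-L1 at 48 hrs and 6 in C3H/10T1/2. Of 15 adipocyte probe sets, 5 were higher and 6 lower in 3T3-L1, with overlapping sums (39987 to 55236 in 3T3-L1, 39177 to 54350 in C3H/10T1/2), led by Dgat2 (-1.05 and -0.72 on its 2 probe sets), Pparg (1.02), Cebpa (-0.38) and Fabp4, whose 4 probe sets gave -1.45, -0.63, -0.63 and -0.10, the last not called (adjusted p = 0.114). Of skeletal muscle markers, 6 of 6 tested were higher in 3T3-L1 (3 higher and 1 lower after quantile normalization, the lower one Acta1 at -1.78). Their sums were 259 to 402 in 3T3-L1, against 115 to 248 in C3H/10T1/2. They were led by Des (1.63), Ckm (1.08), Tnnt3 (1.07) and Myod1 (0.71). After quantile normalization limma did not call Tnnt3 (adjusted p = 0.0685) or Myod1 (0.407). Tnnt3 averaged 17.8 in 3T3-L1 and 9.84 in C3H/10T1/2, under the limit, and Myf5, Myf6 and Myh3 averaged under 5 in both lines.

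Osteoblast and chondrocyte markers had 5 of 7 higher and 1 lower in 3T3-L1 (1 and 1 of 6 after quantile normalization), with sums of 232 to 380 in 3T3-L1, against 136 to 254 in C3H/10T1/2 and Sp7 (0.86) and Comp (0.70) among those measured in both. Col2a1, called lower in 3T3-L1, averaged 5.82 in 3T3-L1 and 14.2 in C3H/10T1/2, and Ibsp, called higher, 14.8 and 7.04, all under the limit. Macrophage markers had 5 of 7 higher and 2 lower (4 and 2 after quantile normalization), with overlapping sums of 489 to 728 in 3T3-L1, against 442 to 823 in C3H/10T1/2. Cd68 (-2.10), Lyz2 (1.05), Csf1r (0.86) and Adgre1 (0.63) differed most, and Ptprc, which marks all leucocytes, averaged 9.60 in 3T3-L1 and 7.04 in C3H/10T1/2, below the limit. Epithelial markers had 3 of 3 tested higher (2 higher and 0 lower after quantile normalization), with sums of 145 to 260 in 3T3-L1, against 53.8 to 128 in C3H/10T1/2, led by Krt18 (2.51), Krt8 (1.34) and Cldn4 (0.74), while Epcam and Krt19 averaged under 5 in both. After quantile normalization limma did not call Comp (adjusted p = 0.0628), Adgre1 (0.316) or Cldn4 (0.396). The part of all these marker lists in the Hox differences was not tested.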

How the data were processed

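Total RNA of 71 cultures was hybridized by the authors to 1-colour Affymetrix mouse arrays, and the deposited values are MAS5 signal intensities on a linear scale from GeneChip Computer Operating System, with the version and scaling target not given in the sources used here. RNA samples had been randomized before labelling. Arrays carry no counts, so precision rests on their number, and no 2 arrays were identical. Probe sets were named from the platform annotation (20380 with 1 gene, 691 with several, 1555 with none), with 20351 matched to RefSeq, and 3 probe sets naming 2 Hox genes were set aside.

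Signals were log2-transformed with the 132 values of 0 set to 0.1. A probe set was tested where a group mean reached 19.9, the intensity limit of the study's methods, applied here to group means, in that line (either line for the comparison of lines). Groups were fitted with limma 3.58.1 in R 4.3.3 (lmFit, and eBayes with a trend), 1 fit per line for RSG and for time, and 1 fit of both lines for the line difference (the mean over 6 DMSO times) and its interaction with RSG. P-values were adjusted by Benjamini-Hochberg over all probe sets tested, with calls at 0.05, and intervals are 95%. The scripts were tested on simulated data. The methods state that the replicates of each condition came from separate differentiation batches, without saying that a replicate number marks a batch, and that wells were pooled per sample.

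Same-numbered arrays of RSG and DMSO deviated together in C3H/10T1/2 (correlations of deviations from group means of 0.13 to 0.31 over 18 arrays, all over 0.1) but not throughout in 3T3-L1 (0.02 to 0.26, 14 of 17 over 0.1), so the numbers met the rule for pairs (every correlation over 0.1) in C3H/10T1/2 only, and blocked values are given for both lines where a call changed. Values were given for every Hox gene present with DMSO or called with RSG, absent genes by counts and ranges, and from each other gene list up to 4 called genes with the largest difference between the lines. The members and lists were chosen with earlier results of these data known. Alternatives were quantile normalization, limits, filters, a floor, blocks, single times, left-out replicates and the methods' test. Upstream windows came from RefSeq for GRCm38.p6, with 20 windows for 18 of the 31 genes, and no protein sequences were used here.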

Additional observations from a re-analysis of the deposited data

How the results depend on the processing

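Of 281 recomputed counts over Hox probe sets, 237 stayed within 1.5 times the value given and 44 did not, and of 296 recomputed values of single called probe sets, 253 kept their call and 43 lost it, with none changing sign. A presence limit of 40 left 11 Hox probe sets in 3T3-L1, against 6 in C3H/10T1/2. Without a filter on low signals 23 were higher in 3T3-L1 and 1 changed with time in C3H/10T1/2. Quantile normalization gave 7 lower in 3T3-L1, 0 changed by RSG in 3T3-L1 at 24 hrs, 1 in C3H/10T1/2 at 48 hrs (Hoxb2) and 1 with time in C3H/10T1/2. Each time alone gave 1 lower in 3T3-L1 at 1, 2 and 24 hrs and 5 higher at 2 hrs, with 2 or 3 arrays a group.

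The replicate block gave 2 changed by RSG in 3T3-L1 at 24 hrs (Hoxa4, Hoxd9), 2 at 48 hrs (Hoxd9, Hoxa9) and 2 in the F test (Hoxd9, Hoxa4), with 14 of 17 same-numbered pairs there correlating over 0.1, and 1 in C3H/10T1/2 at 48 hrs and 4 with time; it changed no other call of RSG or time. Leaving out 1 replicate gave 0 to 1 in 3T3-L1 at 24 hrs, 0 to 2 at 48 hrs, 0 to 1 in its F test and its time test, 0 to 1 in C3H/10T1/2 at 48 hrs and 1 with time in each fit. With only the 2 groups compared, 3T3-L1 at 48 hrs had 0. Hoxa4 entered the RSG tests of 3T3-L1 only through a high RSG group, so its calls in that line describe that choice. The methods' test, an unadjusted p under 0.05 and a change of 1.2-fold, counted 1, 2, 0, 1, 3 and 2 of 19 in 3T3-L1 over the 6 times, against 4.14%, 4.29%, 6.78%, 11.8%, 22.8% and 24.7% of all probe sets, and 0, 2, 1, 2, 0 and 2 of 15 in C3H/10T1/2, against 3.08%, 3.98%, 7.94%, 14.4%, 19.3% and 15.6%. The cause of these changes was not tested. Most Hox signals lay within a few fold of the presence limit, which limits what could be detected.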
